A study of Mus musculus with 2 samples.

Results

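Transcripts of 56 mouse genes of the mitotic spindle and its checkpoint were measured. The genes were chosen by symbol from the 22609 genes listed in the deposited count tables. All 56 symbols were found in both libraries. The cells were CD8+ regulatory T cells, which are CD8+ T cells known to curb immune responses. They were taken from the spleen by cell sorting, from naive mice at an age of 3 months. One library came from Tgfbr2-/-Eomes-/- mice, called DKO here, and 1 from wild-type (WT) mice. By its label the DKO genotype lacks Tgfbr2, which encodes part of the receptor for TGF-beta, together with Eomes, which encodes a T-box factor of CD8+ T cells and NK cells. How many mice went into a library, which markers the sort used, and how and in which cells the genes were deleted are not in the labels. The comparison describes how the DKO library differed from the WT library in transcripts of these genes.

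Cells divide their copied chromosomes with a bipolar spindle of microtubules. CDK1 bound to cyclin A or cyclin B starts mitosis, the Polo and Aurora kinases build the spindle, and kinetochores tie each chromosome to it. The spindle checkpoint holds CDC20 and the anaphase-promoting complex until every kinetochore is attached, after which securin and cyclin B are destroyed and the cell is cleaved. Most of these genes are transcribed late in the cell cycle and are nearly silent in resting lymphocytes, so their transcripts are widely used as a mark of dividing cells. Their promoters are known for a cell cycle genes homology region (CHR), to which the DREAM complex binds in resting cells and complexes with B-MYB and FOXM1 in dividing cells. TGF-beta is a well-known brake on T cell division.

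The DKO library held 19661212 gene counts and the WT library 22307065. Eomes had 3589 counts in the DKO library, or 180 CPM (read counts scaled to library size), against 10292 counts or 469 CPM in the WT library, which is 2.61-fold lower (2.52 to 2.72). Tgfbr2 had 4882 counts or 244 CPM in the DKO library, against 7825 counts or 357 CPM in the WT library, which is 1.46-fold lower (1.41 to 1.51). Both differences have the direction of the genotype label, and both genes were still counted in the DKO library. Counts over a whole gene do not show whether the deleted part was read. Cd8a, the CD8 alpha chain, stood at 978 CPM in the DKO library and 998 CPM in the WT library. Each genotype has 1 library, so differences had no replicate check and no p-value was computed. The range in parentheses after a ratio is its exact 95% interval, which covers counting error only and compares the libraries, not the genotypes.

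Mitotic transcripts were more abundant in the DKO library for nearly all of the 56 genes. Of these, 35 (62.5%) were at least 2-fold higher in the DKO library, each with its interval clear of 1, and 0 were at least 2-fold lower. Among all 11735 genes at 1 CPM or more in either library, 11.7% were higher by the same limit and 3.67% were lower. The ratio of DKO over WT was above 1 for 55 of the 56 genes, and the exception was Racgap1, a subunit of the centralspindlin complex of cytokinesis. Their median log2 ratio was 1.26, against 0.00 over all genes compared. The median ratio was 2.42, with quartiles of 1.68 and 3.27. The interval lay above 1 for 53 genes, below 1 for Racgap1, and held 1 for Bub3 and Ncapd2. Its lower bound stayed above 2 for 25 genes, 20 genes reached 3-fold and 9 of them 4-fold. Close to the limit, Prc1 lay just inside at 2.03 (1.72 to 2.39) and Cenpm just outside at 1.93 (1.32 to 2.84). In bulk RNA such as this, more dividing cells and more mitotic RNA per dividing cell cannot be told apart. Markers of other cell types differed too: summed levels had a DKO over WT ratio of 4.45 for neutrophil, 2.78 for dendritic cell and 2.38 for CD4 and FOXP3 T cell markers, against 0.898 for CD8 T cell markers. Their part in the mitotic difference was not tested.

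**Figure D1:**
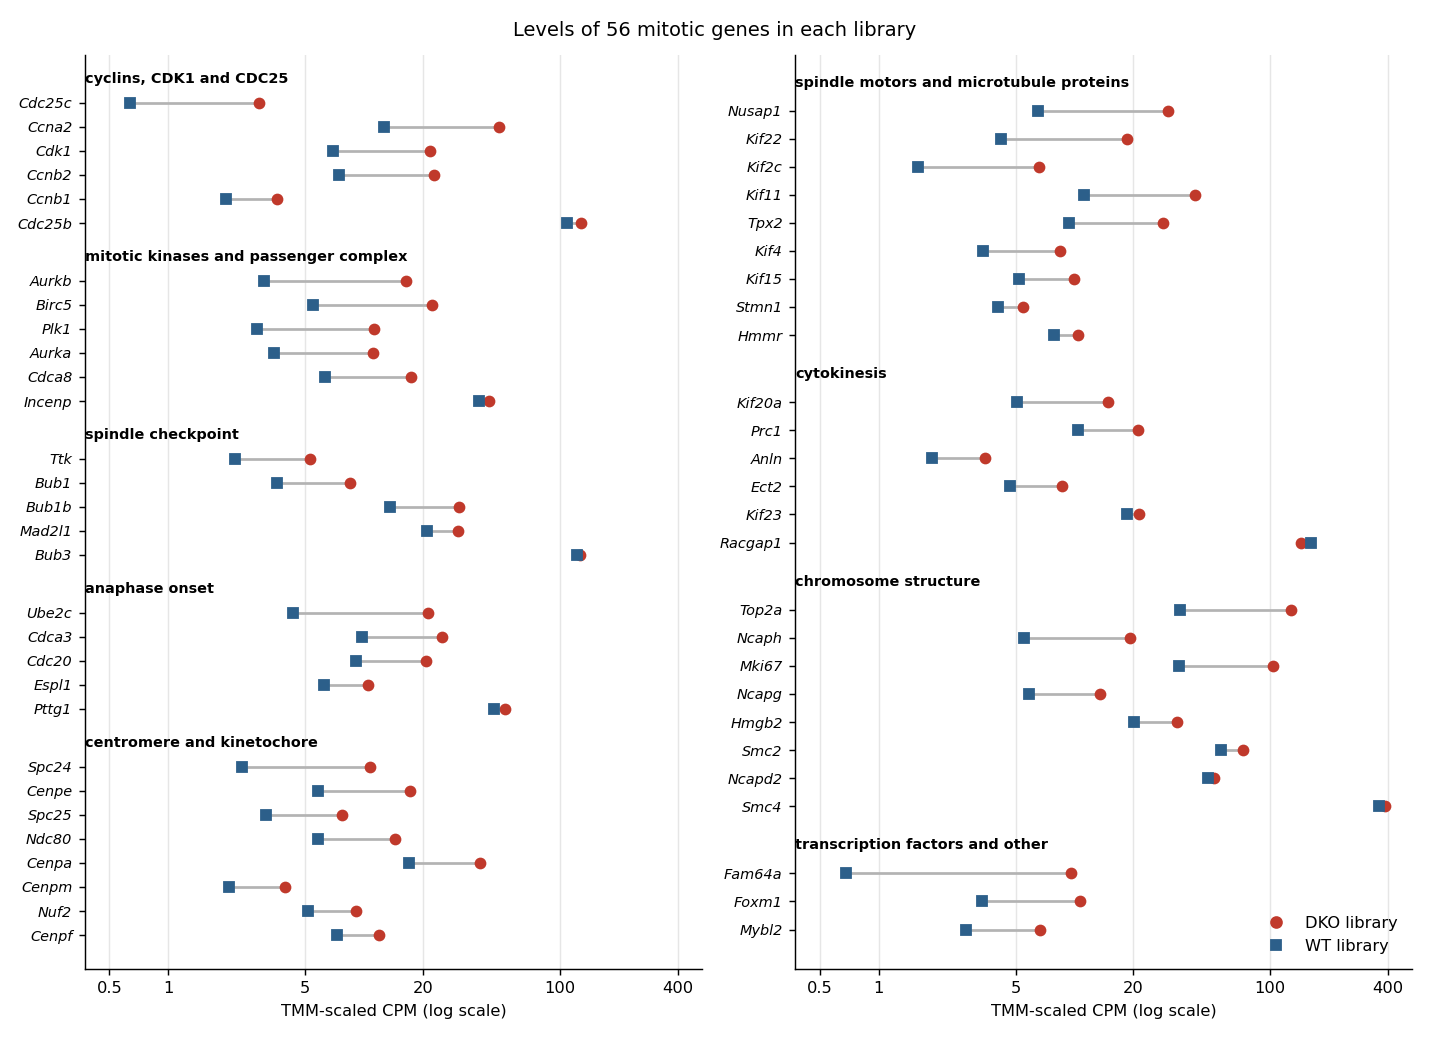
Level of each of the 56 mitotic genes, grouped by role and ordered by ratio within a role, on a logarithmic axis of TMM-scaled CPM. Red circles stand for the DKO library and blue squares for the WT library, with 1 library each and no error bars. The DKO circle lies right of the WT square for 55 genes and left of it for Racgap1, and the pairs nearly touch for Bub3, Smc4 and Ncapd2.

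The amount of mitotic RNA was a small part of either library. The 56 genes together held 40064 counts in the DKO library, or 0.204% of the gene counts (exact binomial interval 0.202% to 0.206%), and 28790 counts in the WT library, or 0.129% (0.128% to 0.131%). Their summed level was 2004 CPM in the DKO library and 1312 CPM in the WT library, a ratio of 1.53 (1.504 to 1.55). This sum moved less than the median gene. Smc4, Racgap1 and Bub3, the 3 genes with the most counts, made up 32.9% of the summed counts in the DKO library and 49.1% in the WT library, and all 3 had ratios near 1. Without them the summed ratio was 2.02 (1.98 to 2.06). Top2a added 93.3 CPM and Mki67 68.6 CPM to the summed difference of 691 CPM, 23.4% of it between them. The median gene stood at 18.03 CPM in the DKO library and 6.06 CPM in the WT library. At least 20 CPM was reached by 26 genes in the DKO library and by 12 in the WT library, and none of the 56 was at 0 in either.

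Ratios differed with abundance, both among the mitotic genes and among all genes. Of the 26 mitotic genes at 5 to 20 CPM in the higher library, 19 were at least 2-fold higher, against 18.8% of all 2398 genes at that level. At 20 to 100 CPM the count was 13 of 20 mitotic genes, against 4.71% of all 4928 genes. At 100 CPM or more it was 2 of 6, against 2.17% of 2627. Only 4 mitotic genes lay at 1 to 5 CPM, where 1 passed the limit and 35.4% of all 1782 genes did. In the 2 middle ranges, which hold most of the mitotic genes, their median log2 ratios were 1.30 and 1.19, against 0.18 and -0.02 for all genes. Across the 56 genes, which share their libraries, the ratio had a Spearman correlation of -0.31 with abundance and -0.21 with exon length.

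**Figure D2:**
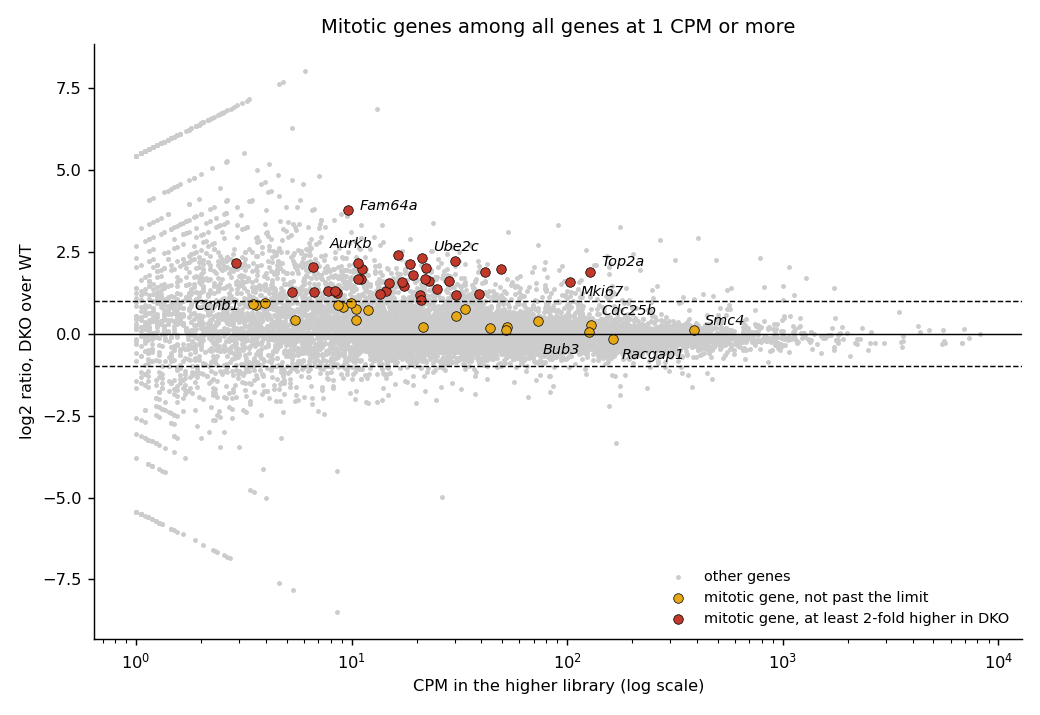
Log2 ratio of DKO over WT for all 11735 genes compared (small points), against CPM in the higher library on a logarithmic axis. Mitotic genes are drawn as large points, red where at least 2-fold higher in the DKO library and yellow where not past the limit, and the dashed lines mark 2-fold. The mitotic genes form a band between 0 and 2.5 that Fam64a exceeds at 3.77 and Racgap1 leaves at -0.18.

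Promoter letters were read for these genes from the RefSeq promoter table of build GRCm38.p6, which gives 250 bases before to 50 after a transcription start. The table matched 45 of the 56 genes, all except Ccna2, Cdc25c, Aurkb, Incenp, Spc24, Tpx2, Stmn1, Kif20a, Smc4, Foxm1 and Fam64a. A CHR word (TTTGAA or TTCGAA on either strand, so that TTCAAA counts too) was in the window of 36 of the 45 (80%), against 21.7% of all 27025 genes in the table. A CCAAT word (CCAAT, or ATTGG on the other strand), read by the factor NF-Y, was in 34 (75.6%) against 41.1%. Both stood together in 32 (71.1%) against 9.65%. The CHR word lay within 50 bases of the start in 32 of the 45 (71.1%), against 6.12% of all genes. An E2F word (GGCGGGAA, GCGCGAAA or GGCGCGAA on either strand) was in 1, Cdk1 (2.22%), against 3.29% of all genes.

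The 8 promoters below, printed from build GRCm38.p6, show how these words sit in genes at both ends of the range of ratios. Each sequence runs 5′ to 3′ on the gene's own strand from 150 bases before to 50 after the start, and capitals mark CHR and CCAAT words. The first 4 are the genes with a CHR word and the highest ratios among the matched genes, the next 2 those with a CHR word and the lowest, and the last 2 are genes high in the DKO library with no CHR word.
Ube2c, chr2:164769779-164769978, + strand: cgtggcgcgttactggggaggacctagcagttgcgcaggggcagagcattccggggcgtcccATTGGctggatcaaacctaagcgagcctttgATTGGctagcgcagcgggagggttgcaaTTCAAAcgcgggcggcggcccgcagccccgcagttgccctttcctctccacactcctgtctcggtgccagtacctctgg
Kif22, chr7:127042371-127042570, - strand: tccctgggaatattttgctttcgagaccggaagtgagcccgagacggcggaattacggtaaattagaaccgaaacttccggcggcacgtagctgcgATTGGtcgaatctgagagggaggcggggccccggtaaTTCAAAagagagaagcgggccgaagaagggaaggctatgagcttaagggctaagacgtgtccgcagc
Kif2c, chr4:117178723-117178922, - strand: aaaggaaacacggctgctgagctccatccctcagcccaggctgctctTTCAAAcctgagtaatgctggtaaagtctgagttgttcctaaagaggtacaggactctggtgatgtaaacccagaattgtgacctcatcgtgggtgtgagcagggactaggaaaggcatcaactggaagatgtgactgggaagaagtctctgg
Plk1, chr7:122159285-122159484, + strand: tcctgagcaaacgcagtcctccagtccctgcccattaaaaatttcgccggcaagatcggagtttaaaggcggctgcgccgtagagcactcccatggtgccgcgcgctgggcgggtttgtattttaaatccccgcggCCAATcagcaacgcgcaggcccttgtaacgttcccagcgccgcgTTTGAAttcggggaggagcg
Racgap1, chr15:99651607-99651806, - strand: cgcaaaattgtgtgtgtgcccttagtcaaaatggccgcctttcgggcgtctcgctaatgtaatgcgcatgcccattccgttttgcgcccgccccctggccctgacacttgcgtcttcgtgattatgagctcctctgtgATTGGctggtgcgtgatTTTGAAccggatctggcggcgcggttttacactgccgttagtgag
Bub3, chr7:131560220-131560419, + strand: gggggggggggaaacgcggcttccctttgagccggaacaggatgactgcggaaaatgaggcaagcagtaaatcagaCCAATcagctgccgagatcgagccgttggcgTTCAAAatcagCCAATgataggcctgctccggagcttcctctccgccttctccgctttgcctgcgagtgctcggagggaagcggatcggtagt
Nusap1, chr2:119618148-119618347, + strand: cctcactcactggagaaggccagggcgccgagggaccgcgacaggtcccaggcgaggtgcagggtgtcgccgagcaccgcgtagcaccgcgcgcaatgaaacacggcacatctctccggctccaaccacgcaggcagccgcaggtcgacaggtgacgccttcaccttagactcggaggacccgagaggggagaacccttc
Birc5, chr11:117849087-117849286, + strand: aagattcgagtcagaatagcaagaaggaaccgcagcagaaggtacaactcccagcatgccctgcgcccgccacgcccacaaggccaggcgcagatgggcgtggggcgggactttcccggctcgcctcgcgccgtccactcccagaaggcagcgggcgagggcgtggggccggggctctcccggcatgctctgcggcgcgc

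Positions give the first base of a word, counted with the first transcribed base as 1 and the base before it as -1. In Ube2c the CHR word TTCAAA starts at -29, with CCAAT words in reverse at -57 and -88. Kif22 has the same arrangement, with TTCAAA at -17 and ATTGG at -54. Plk1 holds TTTGAA at 31 and CCAAT at -14, and Kif2c holds TTCAAA at -103 and no CCAAT word. Racgap1 holds TTTGAA at 6 and ATTGG at -12, and Bub3, at the earlier of its 2 starts in the table, holds TTCAAA at -43 between CCAAT words at -74 and -32. Racgap1 and Bub3, whose ratios were the lowest of the 45, carry the same kinds of word as Ube2c and Kif22. Among genes at least 2-fold higher in the DKO library 22 of 27 matched promoters had a CHR word, and among the other mitotic genes 14 of 18 did. Nusap1 and Birc5 had none of the 3 kinds of word in their windows. A match describes letters in these windows and does not show binding.

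**Figure D3:**
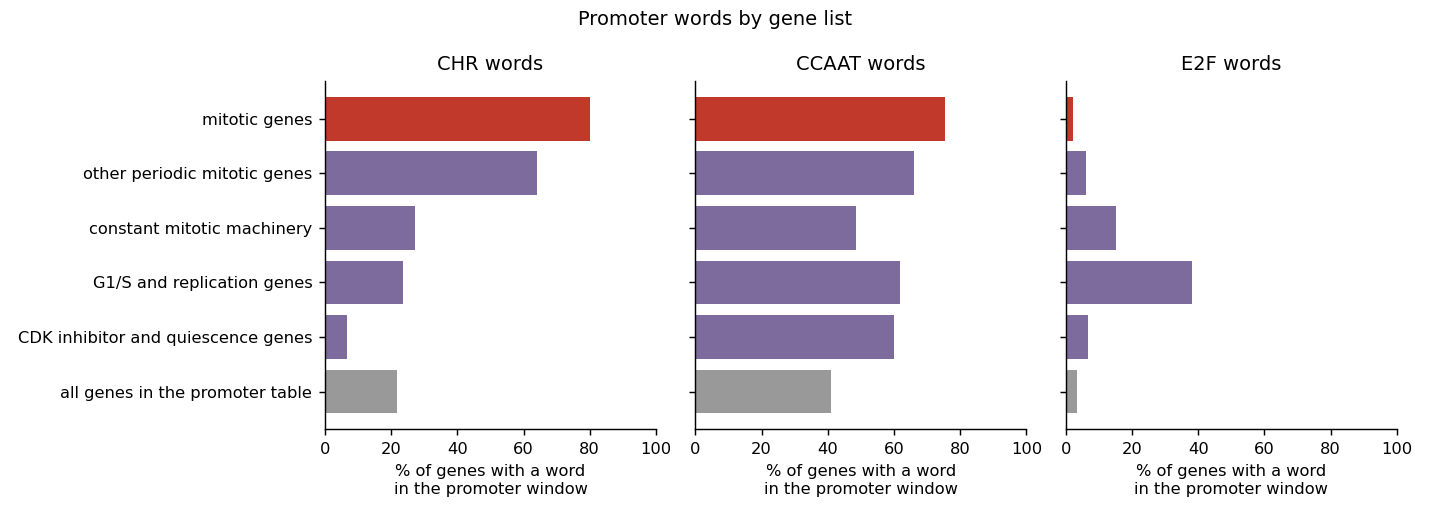
Percent of genes with at least 1 CHR, CCAAT or E2F word in the window from 250 bases before to 50 after the start, for the matched mitotic genes, 4 lists of other cell cycle genes and all genes in the promoter table. CHR words are in 80% of the mitotic genes, 64% of other periodic mitotic genes and 21.7% of all genes, whereas E2F words are in 38.2% of G1/S and replication genes and 2.22% of the mitotic genes.

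Of the 6 cyclin, CDK1 and CDC25 genes, 4 were at least 2-fold higher in the DKO library, and the median log2 ratio was 1.63. For this and each class below, the share over all genes compared was 11.7%, and 18.8% at 5 to 20 CPM. Ccna2, which encodes the cyclin of S phase and early mitosis, had 983 counts (49.2 CPM) in the DKO library, against 276 (12.6 CPM) in the WT library, a ratio of 3.91 (3.42 to 4.48). Cdk1, the kinase that drives mitotic entry, had 436 counts (21.8 CPM) in the DKO library, against 152 (6.93 CPM) in the WT library, a ratio of 3.15 (2.61 to 3.81). Both were scarce in WT and several-fold higher in DKO. The mitotic cyclin gene Ccnb2 had 455 counts (22.8 CPM) in the DKO library, against 164 (7.48 CPM) in the WT library, a ratio of 3.04 (2.54 to 3.66). Its paralog Ccnb1 had 72 counts (3.60 CPM) in the DKO library, against 43 (1.96 CPM) in the WT library, a ratio of 1.84 (1.24 to 2.75) that missed the limit. The Ccnb1 value is uncertain, because 42.1% of its 50-base stretches also occur in transcripts annotated to other genes, Ccnb1-ps among them, and reads from them could be lost as non-unique.

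The CDC25 phosphatases, which switch on CDK1, stood at opposite ends of this class. Cdc25c had 58 counts (2.90 CPM) in the DKO library, against 14 (0.638 CPM) in the WT library, a ratio of 4.55 with a wide interval (2.50 to 8.82). Cdc25b had 2576 counts (129 CPM) in the DKO library, against 2379 (108 CPM) in the WT library, a ratio of 1.19 (1.12 to 1.26). Per kilobase of exon, Cdc25b ranked 3 of the 56 genes in both libraries.

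Among the mitotic kinases and the chromosomal passenger complex, 5 of 6 genes were at least 2-fold higher, with a median log2 ratio of 1.83. Plk1, the Polo kinase of spindle assembly and mitotic exit, had 224 counts (11.2 CPM) in the DKO library, against 62 (2.83 CPM) in the WT library, a ratio of 3.96 (2.98 to 5.34). Aurka, the Aurora kinase of the spindle poles, had 222 counts (11.1 CPM) in the DKO library, against 76 (3.46 CPM) in the WT library, a ratio of 3.20 (2.46 to 4.22). Aurkb, the Aurora kinase of the passenger complex, had 328 counts (16.4 CPM) in the DKO library, against 68 (3.10 CPM) in the WT library. Its ratio of 5.29 (4.06 to 6.98) was the second highest of all 56 genes. Per kilobase of exon Aurkb ranked 20 among the 56 genes in the DKO library and 37 in the WT library, whereas Aurka ranked 31 in both.

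The other subunits of the passenger complex, which corrects faulty attachments at centromeres, did not share one ratio. Birc5 (survivin) stood at 22.2 CPM in the DKO library and 5.52 CPM in the WT library, a ratio of 4.02 (3.28 to 4.95). Cdca8 (borealin) stood at 17.5 CPM in the DKO library and 6.34 CPM in the WT library, a ratio of 2.75 (2.26 to 3.38). Incenp, the scaffold of the complex, had 872 counts (43.6 CPM) in the DKO library, against 853 (38.9 CPM) in the WT library, a ratio of 1.12 (1.02 to 1.23). The intervals of Aurkb, Cdca8 and Incenp did not overlap one another, and the summed ratio of the 4 subunits was 1.85 (1.72 to 1.99).

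Of the 5 spindle checkpoint genes, 3 were past the limit, and the median log2 ratio was 1.17. Ttk, which encodes the MPS1 kinase that starts checkpoint signalling at kinetochores, had 106 counts (5.30 CPM) in the DKO library, against 48 (2.19 CPM) in the WT library, a ratio of 2.42 (1.71 to 3.48). Bub1, a kinase, stood at 8.50 CPM in the DKO library and 3.60 CPM in the WT library, a ratio of 2.36 (1.80 to 3.12). Bub1b, which encodes BUBR1 of the mitotic checkpoint complex, stood at 30.5 CPM in the DKO library and 13.6 CPM in the WT library, a ratio of 2.25 (1.95 to 2.59). These 3 intervals overlapped one another. Mad2l1, which encodes the CDC20 inhibitor MAD2, had 606 counts (30.3 CPM) in the DKO library, against 459 (20.9 CPM) in the WT library, a ratio of 1.45 (1.28 to 1.64). Bub3, the adaptor that brings BUB1 and BUBR1 to kinetochores, had 2528 counts (126 CPM) in the DKO library, against 2698 (123 CPM) in the WT library. Its ratio of 1.03 (0.973 to 1.09) could not be told from 1 at the depth of these counts.

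Of the 5 genes grouped under anaphase onset, 3 were at least 2-fold higher, with a median log2 ratio of 1.19. Ube2c, the ubiquitin-conjugating enzyme of the anaphase-promoting complex, whose promoter is printed above, had 425 counts (21.3 CPM) in the DKO library, against 95 (4.33 CPM) in the WT library, a ratio of 4.91 (3.92 to 6.20). Cdc20, the activator of that complex, had 416 counts (20.8 CPM) in the DKO library, against 200 (9.12 CPM) in the WT library, a ratio of 2.28 (1.92 to 2.72). Cdca3 was grouped here although it is a factor in the degradation of the mitosis inhibitor WEE1. It stood at 24.96 CPM in the DKO library and 9.76 CPM in the WT library, a ratio of 2.56 (2.18 to 3.02). Separase and its inhibitor securin did not pass the limit. Espl1, which encodes separase, had 210 counts (10.5 CPM) in the DKO library, against 137 (6.25 CPM) in the WT library, a ratio of 1.68 (1.35 to 2.10). Pttg1, which encodes securin, had 1053 counts (52.7 CPM) in the DKO library, against 1007 (45.9 CPM) in the WT library, a ratio of 1.15 (1.05 to 1.25).

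All 8 centromere and kinetochore genes had ratios above 1, 5 of them past the limit, with a median log2 ratio of 1.25 and a summed ratio of 2.34 (2.18 to 2.52). Cenpa, the histone H3 variant that marks centromeres, had 779 counts (39.0 CPM) in the DKO library, against 373 (17.0 CPM) in the WT library, a ratio of 2.29 (2.02 to 2.60). Cenpe, a kinesin that moves chromosomes to the metaphase plate, stood at 17.2 CPM in the DKO library and 5.79 CPM in the WT library, a ratio of 2.96 (2.41 to 3.66). Cenpm, of the inner kinetochore, had 79 counts in the DKO library and 45 in the WT library, a ratio of 1.93. Cenpf, a large protein of the outer kinetochore, had 238 counts (11.9 CPM) in the DKO library, against 160 (7.29 CPM) in the WT library, and at 1.63 (1.33 to 2.01) had the lowest ratio of the class.

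The 4 subunits of the NDC80 complex, which grips microtubule ends, were all low in WT, between 2.37 and 5.84 CPM. Their summed ratio was 2.54 (2.24 to 2.88). Spc24 had 214 counts (10.7 CPM) in the DKO library, against 52 (2.37 CPM) in the WT library, a ratio of 4.52 (3.32 to 6.24). Ndc80 had 287 counts in the DKO library and 128 in the WT library, and Spc25 had 155 in the DKO library and 69 in the WT library, both with a ratio of 2.46. Nuf2 had 182 counts (9.10 CPM) in the DKO library, against 113 (5.15 CPM) in the WT library, a ratio of 1.77 (1.39 to 2.25). The intervals of Spc24 and Nuf2 did not overlap.

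Spindle motors and microtubule proteins had the highest summed ratio of any class with more than 3 genes, 2.98 (2.78 to 3.19), and 6 of 9 were past the limit. Kif11 (Eg5), the motor that pushes the spindle poles apart, had 829 counts (41.5 CPM) in the DKO library, against 246 (11.2 CPM) in the WT library, a ratio of 3.70 (3.20 to 4.28). Nusap1, a protein that bundles spindle microtubules, had 601 counts (30.1 CPM) in the DKO library, against 143 (6.52 CPM) in the WT library, a ratio of 4.61 (3.84 to 5.57). Kif22 (Kid), a motor on chromosome arms, had 372 counts (18.6 CPM) in the DKO library, against 93 (4.24 CPM) in the WT library, a ratio of 4.39 (3.49 to 5.57). All 3 were higher by more than the 2-fold limit at their lower bounds. Kif2c (MCAK), which takes microtubule ends apart, had 132 counts in the DKO library and 35 in the WT library, a ratio of 4.14 (2.83 to 6.19). Tpx2, the activator of Aurora A on the spindle, had a ratio of 3.02 (2.57 to 3.56), with 28.2 CPM in the DKO library and 9.35 CPM in the WT library. Kif4, a chromosome-bound kinesin, had a ratio of 2.46 (1.86 to 3.27).

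The other 3 genes of this class did not pass the limit. Kif15, a motor that can stand in for Kif11, had 198 counts (9.90 CPM) in the DKO library, against 114 (5.20 CPM) in the WT library, a ratio of 1.91 (1.51 to 2.42). Hmmr, a spindle protein and hyaluronan receptor, had 209 counts (10.5 CPM) in the DKO library, against 173 (7.89 CPM) in the WT library, a ratio of 1.33 (1.08 to 1.63). Stmn1 (stathmin), which binds free tubulin, had 109 counts (5.45 CPM) in the DKO library, against 89 (4.06 CPM) in the WT library, a ratio of 1.34 (1.01 to 1.80). Stmn1 shares 34.7% of its 50-base stretches with other annotated transcripts, so its counts are uncertain.

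**Figure D4:**
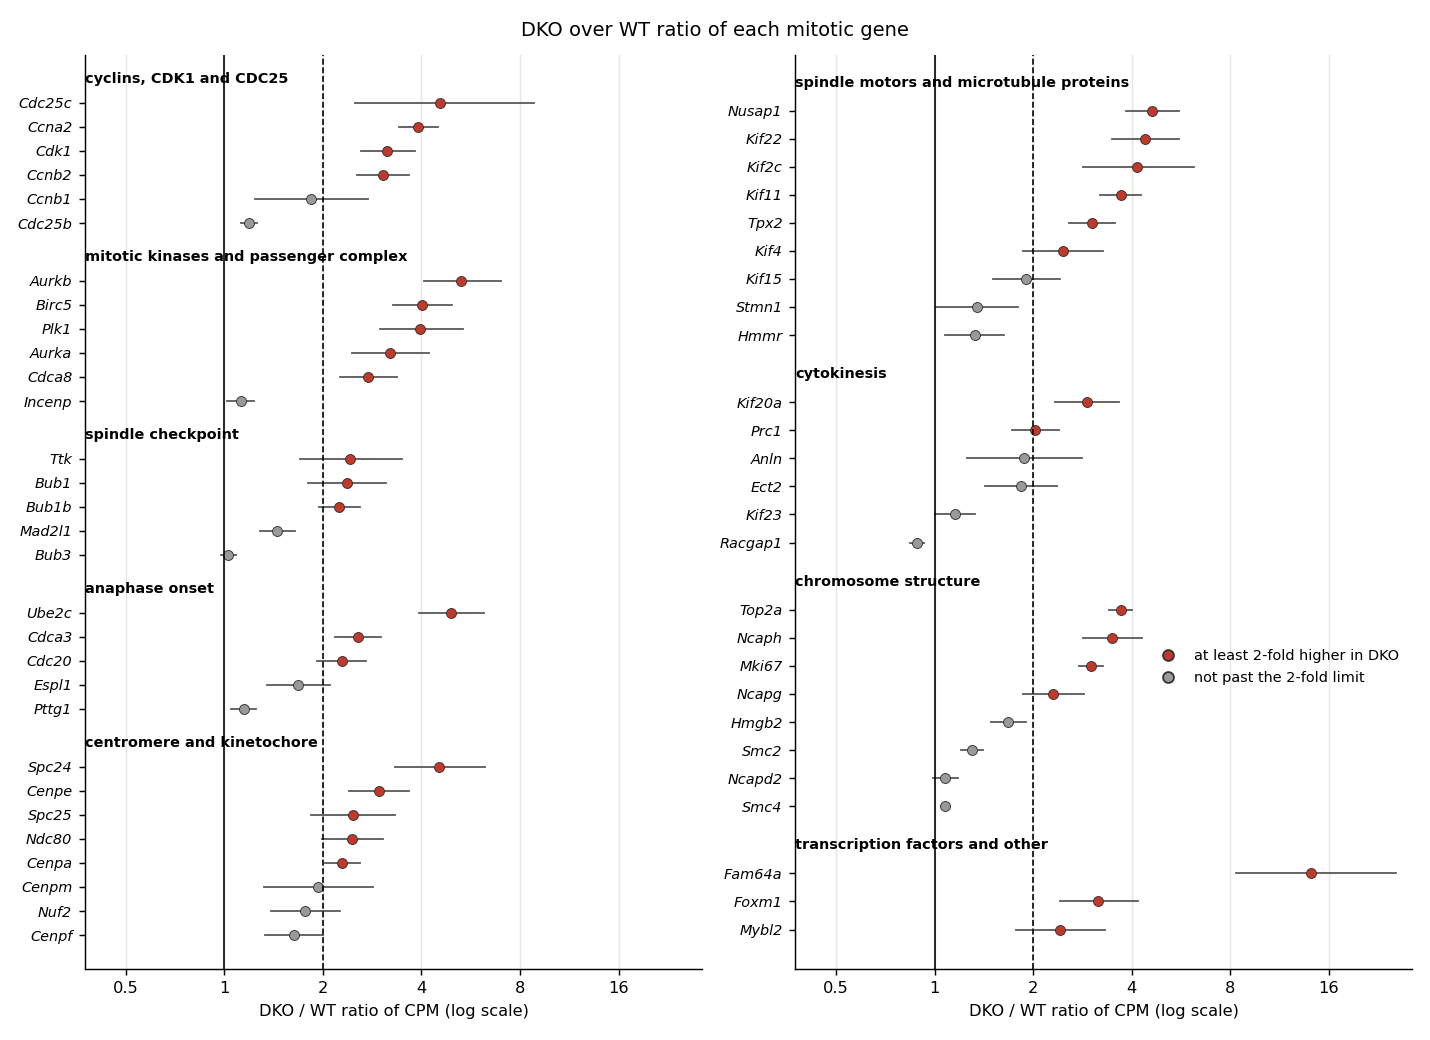
Ratio of DKO over WT CPM for each of the 56 mitotic genes on a logarithmic axis, with bars for the exact 95% interval of counting error. Red points passed the 2-fold limit (dashed line) and grey points did not. Fam64a stands apart at 14.1, Racgap1 is the only gene left of 1, and every class except the transcription factor class mixes genes on both sides of the dashed line.

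Cytokinesis genes had the lowest median of the 9 classes, a log2 ratio of 0.88, and 2 of 6 were past the limit. Kif20a, a kinesin of the central spindle, had 297 counts (14.9 CPM) in the DKO library, against 112 (5.11 CPM) in the WT library, a ratio of 2.91 (2.33 to 3.65). Prc1, which crosslinks the antiparallel microtubules of the midzone, had 421 counts (21.1 CPM) in the DKO library, against 228 (10.4 CPM) in the WT library, a ratio of 2.03 (1.72 to 2.39). Both overlap exons of a gene on the opposite strand, Cdc23 and Rccd1, whose reads cannot be told apart without a stated strand setting. Anln (anillin), which scaffolds the contractile ring, had 70 counts in the DKO library and 41 in the WT library, a ratio of 1.87 (1.26 to 2.83). Ect2, the exchange factor that activates RhoA at the cleavage site, had 172 counts in the DKO library and 103 in the WT library, a ratio of 1.83 (1.43 to 2.36).

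The centralspindlin pair, which recruits ECT2, did not follow the rest of the class. Kif23 had 427 counts (21.4 CPM) in the DKO library, against 406 (18.5 CPM) in the WT library, a ratio of 1.15 (1.005 to 1.33). Racgap1 had 2872 counts (144 CPM) in the DKO library, against 3560 (162 CPM) in the WT library, a ratio of 0.885 (0.842 to 0.930), or 1.13-fold lower. The 2 subunits summed to a ratio of 0.913 (0.871 to 0.956). Racgap1 ranked 2 of the 56 genes per kilobase of exon in both libraries, with 46.9 CPM per kb in the DKO library and 52.9 CPM per kb in the WT library.

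Chromosome structure genes held the most counts of any class, and 4 of 8 were past the limit, with a median log2 ratio of 0.97. Top2a, the topoisomerase that untangles sister chromatids, had 2556 counts (128 CPM) in the DKO library, against 758 (34.6 CPM) in the WT library, a ratio of 3.70 (3.41 to 4.02). Mki67, which encodes the proliferation antigen Ki-67 on the surface of mitotic chromosomes, had 2057 counts (103 CPM) in the DKO library, against 751 (34.2 CPM) in the WT library, a ratio of 3.01 (2.76 to 3.27). Both belong to the 6 genes above 100 CPM in the DKO library, and they were the only ones of the 6 past the limit. Hmgb2, a DNA-bending protein, had 672 counts in the DKO library and 440 in the WT library, a ratio of 1.68 (1.48 to 1.89), with 21.9% of its 50-base stretches shared with other transcripts.

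Condensin I, the ring that compacts mitotic chromosomes, differed among its own subunits. Ncaph, its kleisin subunit, had 384 counts (19.2 CPM) in the DKO library, against 121 (5.52 CPM) in the WT library, a ratio of 3.48 (2.83 to 4.31). Ncapg stood at 13.6 CPM in the DKO library and 5.88 CPM in the WT library, a ratio of 2.30 (1.86 to 2.87). Ncapd2, the other HEAT-repeat subunit, had 1034 counts (51.7 CPM) in the DKO library, against 1054 (48.0 CPM) in the WT library, a ratio of 1.08 (0.987 to 1.17). The SMC subunits, which condensin I shares with condensin II, were not past the limit. Smc2 had 1455 counts (72.8 CPM) in the DKO library, against 1229 (56.03 CPM) in the WT library, a ratio of 1.30 (1.20 to 1.40). Smc4 had 7736 counts (387 CPM) in the DKO library, against 7886 (359 CPM) in the WT library, a ratio of 1.08 (1.04 to 1.11). Smc4 was the most abundant of the 56 genes per length, at 89.6 CPM per kb in the DKO library and 83.3 CPM per kb in the WT library.

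All 3 genes of the last class were past the limit. Foxm1, the forkhead factor of mitotic genes, had 213 counts (10.7 CPM) in the DKO library, against 74 (3.37 CPM) in the WT library, a ratio of 3.16 (2.41 to 4.17). Mybl2, which encodes B-MYB, had 134 counts (6.70 CPM) in the DKO library, against 61 (2.78 CPM) in the WT library, a ratio of 2.41 (1.77 to 3.32), with 23.8% of its 50-base stretches shared. Both factors are known to act on CHR promoters of the kind printed above. Fam64a, known as Pimreg in newer annotation, had 193 counts (9.65 CPM) in the DKO library, against 15 (0.684 CPM) in the WT library. Its ratio of 14.1 (8.35 to 25.7) was the highest of the 56 genes, and its lower bound exceeded the upper bound of every other gene but Cdc25c.

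Sequence shared with other genes and overlapping exons bear on some of these values. Of the 56 genes, 29 had no 50-base stretch in common with the transcripts of other genes and 5 had more than 10% (Ccnb1, Stmn1, Mybl2, Hmgb2 and Cdc20). Exons on the same strand overlapped for Foxm1 (with Tex52 and Gm44596) and Stmn1 (with Gm23634), so their values are uncertain. Exons of 10 genes overlapped a gene on the opposite strand, among them Ccna2, Cdc25b, Plk1, Ube2c, Nusap1, Kif4 and Ncapg besides Kif20a, Prc1 and Cdc20. Leaving out the 14 genes with over 10% shared sequence or an opposite-strand overlap kept 42, Foxm1 among them. Of those, 25 were at least 2-fold higher, with a median log2 ratio of 1.28.

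Order by level was largely the same in both libraries. Levels per kilobase of exon had a Spearman correlation of 0.887 between the DKO and WT libraries across the 56 genes, and Smc4, Racgap1 and Cdc25b led in both. The rank changed by more than 10 places for 8 genes. Fam64a ranked 29 in the DKO library and 54 in the WT library, the widest shift upward, and Kif23 ranked 30 in the DKO library and 12 in the WT library. The median level per length was 6.42 CPM per kb in the DKO library and 1.99 CPM per kb in the WT library. The summed ratio of 1.53 does not describe each gene. By intervals of counting error alone, those of 12 genes held it, 35 lay above it and 9 below it.

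Counts were also made over 4 lists of related cell cycle genes. By the same limit, 11.7% of all genes compared were higher and 3.67% lower. Among 59 other mitotic genes listed as periodic, with transcripts that vary over the cell cycle, 32 (54.2%) were at least 2-fold higher and 0 lower. Their median log2 ratio was 1.10. At a minimum of 5 CPM the count of higher genes was 21. Of all genes at 1 to 5 CPM, 35.4% were higher in the DKO library. Kif14, a kinesin of cytokinesis, had 113 counts (5.65 CPM) in the DKO library, against 21 (0.957 CPM) in the WT library, a ratio of 5.90 (3.68 to 9.91). Spag5 (astrin), a spindle pole protein, had 127 counts (6.35 CPM) in the DKO library, against 24 (1.09 CPM) in the WT library, a ratio of 5.81 (3.73 to 9.39). At the other end of the list, Hjurp, the chaperone that loads CENP-A, had 189 counts (9.45 CPM) in the DKO library, against 348 (15.9 CPM) in the WT library, 1.68-fold lower but short of the limit. Ube2s, the partner of Ube2c on the anaphase-promoting complex, had 126 counts (6.30 CPM) in the DKO library, against 203 (9.25 CPM) in the WT library, also 1.47-fold lower and short of the limit.

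Mitotic machinery that is present throughout the cell cycle, such as subunits of the anaphase-promoting complex and cohesin, had a median ratio near 1. Of 38 such genes, 1 (Mastl, the Greatwall kinase, at 2.19) was at least 2-fold higher and 0 lower, against 11.7% and 3.67% of all genes. At a minimum of 5 CPM the count of higher genes was 0. The median log2 ratio was 0.01. Lin9, a subunit of the MuvB core of DREAM, had 438 counts in the DKO library and 319 in the WT library, a ratio of 1.51. Pds5b, a cohesin regulator, had 1235 counts in the DKO library and 1818 in the WT library, 1.34-fold lower. These genes summed to 3443 CPM in the DKO library and 3549 CPM in the WT library.

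G1/S and replication genes, which are switched on before mitosis, had a median log2 ratio between those of these lists. Of 40, 9 (22.5%) were at least 2-fold higher, against 11.7% of all genes and 18.8% of those at 5 to 20 CPM. The count of lower genes was 0, and 36 had ratios above 1, with a median log2 ratio of 0.39. Tk1, thymidine kinase, had 243 counts (12.2 CPM) in the DKO library, against 44 (2.01 CPM) in the WT library, a ratio of 6.06 (4.38 to 8.56). Mcm10, a replication initiation factor, had 181 counts (9.05 CPM) in the DKO library, against 56 (2.55 CPM) in the WT library, a ratio of 3.55 (2.61 to 4.88). Ung, which removes uracil from DNA, had 370 counts in the DKO library and 440 in the WT library, and was not past the limit. The difference between these lists was described by counts and medians, with no test.

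A further list held CDK inhibitors, pocket proteins and factors of resting cells, along with the D-type cyclin genes Ccnd2 and Ccnd3, which promote entry into the cell cycle. Of its 17 genes compared, 3 (17.6%) were at least 2-fold higher, against 11.7% of all genes, and 0 were lower. The median log2 ratio was 0.10. At a minimum of 5 CPM the count of higher genes was 1. Cdkn1a, which encodes the CDK inhibitor p21, had 185 counts (9.25 CPM) in the DKO library, against 75 (3.42 CPM) in the WT library, a ratio of 2.71 (2.06 to 3.59). Cdkn2c, which encodes an inhibitor of CDK4 and CDK6, had 354 counts in the DKO library and 224 in the WT library, a ratio of 1.73. Ccnd2 had the lowest ratio of the list, with 11262 counts (563 CPM) in the DKO library, against 17173 (783 CPM) in the WT library, 1.39-fold lower and short of the limit. Foxo1, a transcription factor of resting T cells, had 3381 counts in the DKO library and 5143 in the WT library, and was also 1.39-fold lower.

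**Figure D5:**
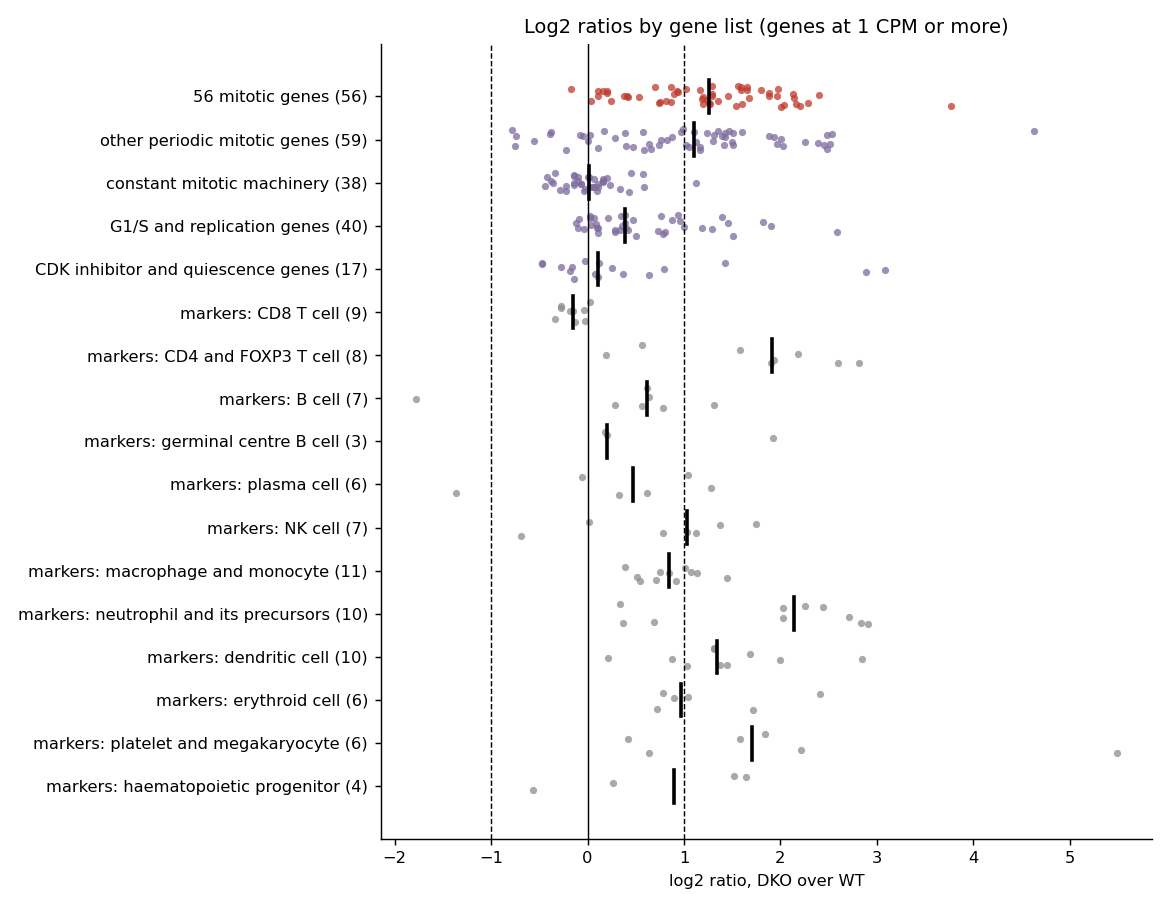
Log2 ratio of DKO over WT for the genes of each list at 1 CPM or more, with 1 point per gene, a bar at the median and the number of genes in parentheses. Dashed lines mark 2-fold. The 56 mitotic genes and the other periodic mitotic genes have medians of 1.26 and 1.10, constant mitotic machinery 0.01, and the marker lists run between -0.15 for CD8 T cells and 2.14 for neutrophils.

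Markers of several other spleen cells had higher summed levels in the DKO library. B cell markers summed lower, although 6 of the 7 compared had ratios above 1 and the median log2 ratio of that list was 0.62. By the 2-fold limit, 11.7% of all genes compared were higher. The 9 CD8 T cell markers summed to 7910 CPM in the DKO library and 8807 CPM in the WT library, and none was past the limit. Neutrophil markers summed to 2668 CPM in the DKO library and 600.0 CPM in the WT library (7 of 10 at least 2-fold higher), dendritic cell markers to 4188 and 1507 CPM in the DKO and WT libraries (8 of 10), and macrophage markers to 2632 and 1357 CPM (4 of 11). CD4 and FOXP3 T cell markers summed to 239 CPM in the DKO library and 100.3 CPM in the WT library (6 of 8), and NK cell markers to 960.5 CPM and 586 CPM (4 of 7). S100a9, a neutrophil marker gene, alone stood at 1066 CPM in the DKO library and 261 CPM in the WT library. Cd74, the MHC class II invariant chain, stood at 1727 and 666 CPM.

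Further types of cell were covered by their own lists. By the same limit, 35.4% of all genes at 1 to 5 CPM and 18.8% at 5 to 20 CPM were higher in the DKO library. Counts of calls over such short lists are therefore not read as differences in those cells. Of the germinal centre B cell markers 1 of 3 compared was past the limit. The list summed to 64.0 CPM in the DKO library and 52.5 CPM in the WT library, and Rgs13 was at 0 in both. Plasma cell markers summed to 549 CPM in the DKO library and 306 CPM in the WT library (2 of 6 higher, 1 lower), and B cell markers to 94.5 CPM and 134 CPM (1 of 7 higher, 1 lower, with Ebf1 at 0 in the DKO library). Erythroid markers summed to 44.2 CPM in the DKO library and 21.8 CPM in the WT library (3 of 6), with 4 globin genes listed at 0 in both libraries. These zeros do not show that globin RNA was absent, because reads with non-unique alignments were not assigned to genes. Platelet markers summed to 73.0 CPM in the DKO library and 40.4 CPM in the WT library (4 of 6), and progenitor markers to 42.9 CPM and 34.2 CPM (2 of 4, with Meis1 at 0 in the WT library). The neutrophil precursor genes Elane and Mpo had ratios of 1.30 and 1.27. Neither is typical of its list of 10, in which 7 genes were at least 2-fold higher and the median log2 ratio was 2.14.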

How the data were processed

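Total RNA of 1 DKO and 1 WT library was prepared with the TruSeq total RNA kit of Illumina and sequenced as single 50-base reads, per the labels' protocols. The authors deposited raw counts of reads per gene. Named without roles in the submitters' processing notes are HTSeq, TopHat2 2.0.8b, bcl2fastq and mm9. The annotation and the strand setting were not given in the sources used here. Rows that name no gene (5 per library) were left out; the non-unique row held 64.8% of the total in DKO and 66.4% in WT, and genes held 30.5% and 28.5%.

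Counts were scaled with TMM factors from edgeR 4.0.16 (1.02 in DKO, 0.983 in WT) to CPM. Each ratio is DKO over WT. Its 95% interval was computed by the exact Clopper-Pearson method (scipy 1.17.1) from the part of a gene's counts that fell in DKO. It covers counting error only, and may be too narrow even for that, since reads lacking molecular identifiers need not be independent molecules. Log2 ratios used a prior count of 0.5. The comparison took genes at 1 CPM or more in at least 1 library, and the limit for a call was 2-fold with an interval clear of 1. No test across replicates was made with 1 library per genotype. Exon lengths and shared 50-base stretches came from GENCODE M21 on GRCm38, and promoters from RefSeq. The scripts were tested on simulated data.

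The 56 genes, the lists, classes and limits were chosen with earlier results of these data known. Genes given in full are the highest and lowest ratio and the most counts of each class, and the 2 highest and 2 lowest ratios at 5 CPM or more of each other list, of which some are not printed. Mastl was named after its value was seen. Alternatives were other scalings, filters, limits, prior counts and promoter windows. Single values of some marker genes are not reported here.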

Additional observations from a re-analysis of the deposited data

How the results depend on the processing

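No paired analysis was possible because each genotype has 1 library. The count of 35 genes at least 2-fold higher in the DKO library was also 35 with DESeq2 size factors and with no filter, 34 at a minimum of 5 CPM, 40 with scaling by CD8 T cell markers and 44 at a limit of 1.5-fold, but 20 at a limit of 3-fold. No gene of the 56 was past the lower limit under any of these settings. Scaling by total gene counts gave a median log2 ratio of 1.31 and a summed ratio of 1.58, and scaling by CD8 T cell markers gave 1.42 and 1.70. The CD8 scaling moves the median of all genes to 0.16, against which its values are read. A prior count of 5 gave a median of 1.20. The summed ratio was 2.02 without Smc4, Racgap1 and Bub3. It was 1.47 without the 14 genes that share over 10% of their sequence or overlap a gene on the opposite strand, an alternative chosen after seeing the data, as was the promoter window of 50 bases on either side. For classes, lists and promoter words, 110 values stayed within the limits set for them under the alternatives and 30 did not. Of the single ratios under other scalings and prior counts, 213 moved by less than their interval and 11 by more, and none changed direction. Racgap1 stayed below 0 at -0.02 under the CD8 scaling. Depth limits the genes with few counts, such as Cdc25c with 14 in the WT library. The spread between mice is unknown.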
